A study of Mus musculus with 3264 samples.

Results

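Hematopoietic progenitor cell (HPC) wells of a mixture of mouse cell lines were compared between 2 ways of picking: after time-lapse imaging and by random selection. A well counted as an HPC well when 5 HPC genes (Plac8, Ifitm1, Mef2c, Cd34 and Tyrobp) made up at least 70% of its summed counts over 15 genes, 5 for each of the 3 lines of the mixture. The 5 leukemia genes were Cd7, Cacna2d2, Capn3, Aass and S1pr4, and the 5 T genes were Bcl11b, Ccdc91, Skap1, Sp9 and Rora. The rule kept 20.3% of the 1836 wells listed in the cell line table as HPC wells of these groups. There were 10 to 24 of them on each of 16 time-lapse plates and 21 to 32 on each of 4 random plates. The whole series has 3264 labelled wells, and 65.6% of the labelled time-lapse wells and 85.9% of the labelled random wells are listed in the table.

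Every well was meant to hold 1 cell, and its RNA was copied with a primer that carries a molecular barcode and counted gene by gene. The mixture held 3 mouse lines: a leukemia, a T and an HPC line. The labels give its strain as NA and name neither the lines nor a culture or a duration of imaging. In both groups the cells were picked from this mixture by ALPS, a system that images live cells and places them in wells 1 at a time. Time-lapse wells (3mix-timelapse) were filled after time-lapse imaging, random wells (3mix-random) in random selection mode, and the cell type label of the time-lapse wells reads random selection too. A further 70 of 73 listed wells that were labelled HPC and picked in target selection mode (3mix-target, 4 plates) passed the same rule and are used here as a second set to compare with.

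Since no culture or animal is named and every sample is a single cell, each group counts as 1 sample, with no p-value and no standard error. Each plate held wells of 1 group only, so plate and group cannot be told apart. Counts were summed over the HPC wells of a plate and scaled to counts per 1e+06 counts (CPM). Differences are plate means of log2 (CPM + 1), time-lapse minus random, and the 1 CPM added understates the difference of low genes. A gene is called higher or lower here when that difference is at least 1 (2-fold) and at least 14 of 16 time-lapse plates lie past every random plate. Values are given as the lowest, median and highest of the 16 time-lapse plates, and then as random plates 1 to 4 in order, and a value in parentheses after a gene is its log2 difference from random wells.

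Hematopoietic progenitors are dividing blood cells that depend on cytokine signals, and these signals keep up growth genes such as Myc and the D-type cyclins. Immediate early genes such as Fos answer a signal within minutes and their RNA is short-lived. The transcription factor Nrf2 (Nfe2l2) is held back by Keap1, and when cells meet oxidants or electrophiles it turns on genes of glutathione synthesis, thioredoxin, NADPH supply and heme breakdown, while heme releases the repressor Bach1 from some of the same genes.

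The wells carried the markers of the HPC line. Plac8 had 418.3, 586.5 and 882.9 CPM on time-lapse plates, against 799.4, 793.3, 934.7 and 851.6 CPM on random plates. Cd34, the surface sialomucin of progenitors, had 130.8, 299.9 and 450.2 CPM on time-lapse plates, against 439.7, 397.6, 453.7 and 332.7 CPM on random plates, and Mef2c, a transcription factor, 356.3, 593.9 and 827.9 CPM on time-lapse plates, against 500.5, 411.6, 479.9 and 509.8 CPM on random plates. These genes chose the wells and are given as a description. Among markers the rule did not use, the receptor gene Flt3 had 64.1, 111.1 and 184.7 CPM on time-lapse plates, against 127.96, 118.9, 146.2 and 133.4 CPM on random plates. The myeloid factor Spi1 had 102.4, 186.1 and 287.7 CPM on time-lapse plates, against 125.98, 112.1, 121.2 and 133.4 CPM on random plates. Hoxa9 had 75.4, 126.6 and 207.6 CPM on time-lapse plates, against 117.6, 138.2, 122.5 and 107.1 CPM on random plates, and the stem cell factor receptor Kit was low in both groups, at 0 to 29.6 CPM on time-lapse plates, against 1.65 to 8.75 CPM on random plates. Of the other markers looked at, Sox4 was called higher (1.05), Lst1 was called lower (-1.42) and Fcgr3 was not called (-0.58).

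Markers of other cells ranged from absent to well detected. The 5 leukemia genes of the rule summed to 0.806, 14.1 and 82.7 CPM on time-lapse plates, against 13.8, 24.6, 14.4 and 8.24 CPM on random plates, and the 5 T genes to 0, 1.58 and 12.96 CPM on time-lapse plates, against 0, 0.966, 1.25 and 0 CPM on random plates. The B cell factor Pax5, the erythroid factor Gata1, Gata2 and the neutrophil elastase gene Elane had no count in either group. Of 18 B cell genes, 15 were in the table and summed to 18.5, 56.8 and 137.04 CPM on time-lapse plates, against 30.3, 30.9, 22.5 and 19.8 CPM on random plates, and only Rag1 and Rag2 reached the level for a comparison, with differences of 1.76 and 0.63 and no call. Wider marker lists gave higher sums. The T line list (18 of 20 genes in the table) summed to 239.1, 372.6 and 611.6 CPM on time-lapse plates, against 459.7, 598.4, 554.6 and 600.4 CPM on random plates, with Fabp5, a fatty acid binding protein (-1.30), and Cd28, a co-stimulatory receptor (0.75), the most abundant. The 12 genes of the leukemia list summed to 271.4, 427.5 and 596.9 CPM on time-lapse plates, against 534.6, 385.1, 446.2 and 434.9 CPM on random plates, most of it the chromatin protein gene Hmgn1. On all but 1 time-lapse plate each of these 2 sums lay inside or below the random range. Of 22 granule and neutrophil genes, 9 had no count, and the list summed to 378.9, 605.9 and 945.96 CPM on time-lapse plates, against 610.2, 816.3, 705.3 and 676.5 CPM on random plates. The 16 erythroid and megakaryocyte genes, 3 of them with no count, summed to 50.7, 159.4 and 270.7 CPM on time-lapse plates, against 205.4, 116.4, 121.9 and 105.4 CPM on random plates, and the globin gene Hbb-bt alone reached the level for a comparison. The part of other cells or their free RNA in the results was not tested.

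Most wells lay far from the threshold. The HPC genes made up 100% of the 15-gene sum in 69.1% of the time-lapse HPC wells and 63.96% of the random ones. Just inside the threshold were time-lapse wells at 76.9, 82.2 and 88.2% and a random well at 88.9%, and just outside were time-lapse wells at 69.6, 68.8 and 64.02% and a random well at 40.8%. HPC wells made up 25.99% of time-lapse wells (exact 95% interval 23.3 to 28.8%, plates 15.2 to 40.7%) and 33.6% of random wells (28.6 to 39.02%, plates 24.1 to 42.7%). The plate ranges overlap.

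HPC wells had a median of 33682 counts in the time-lapse group (10233 to 112183) and 29584 counts in the random group (10070 to 69105). The median number of detected genes was 5521 in time-lapse wells and 5400.0 in random wells. Thinned to 20000 counts, which left out 39 time-lapse and 13 random wells, the median was 4457 genes in time-lapse wells and 4542.5 in random wells. Rn45s, the ribosomal RNA precursor, took 8.95 to 18.7% of the HPC counts on time-lapse plates (median 14.1%), against 8.61 to 12.01% on random plates (median 9.34%).

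Of 24781 genes in the table, 8355 had at least 10 CPM as a mean over plates in 1 group and were compared. The call was higher for 4.38% and lower for 8.27% of these genes, 12.7% in all, and the median difference over all genes compared was -0.08. The counts called in each list below are to be read beside these shares. The lists were chosen with earlier results of these data known, so a list's excess over these shares is a description and no test. Every time-lapse plate lay above every random plate for 3.4% of the genes and below every random plate for 7.12%. Among called genes of at least 50 CPM and 30 counts in 1 group, leaving out Gm, Rik, Snor and Mir symbols, the largest differences upward were those of Hmox1, Gclm, Nqo1, Srxn1, Gclc, Nrp1, Ptgir, Lipa, Cyb5a, Ptafr, Tbcel and Mpeg1. Downward, within the same limits, they were those of Fosb, Ccnd1, Fos, Tmem119, Ccl4, Ccdc36, Rnu11, Dqx1, Myc, Xaf1, Lgals3bp and Rpph1. The first 5 genes upward all belong to the oxidative stress list described below, and the list of lower genes begins with immediate early and cell cycle entry genes.

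**Figure D1:**
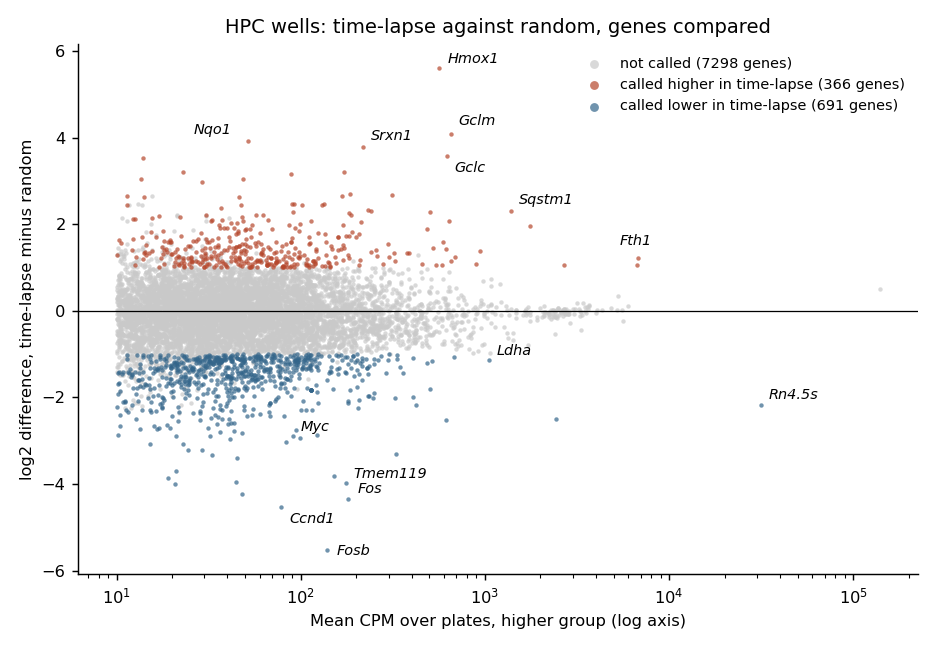
Each point is 1 of 8355 genes, with the mean CPM of the group in which it is higher on a log axis and the log2 difference, time-lapse minus random HPC wells. The genes called higher (4.38%) reach 5.61 (Hmox1), those called lower (8.27%) reach -5.53 (Fosb), and most of the highly expressed genes at the right lie near 0.

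The oxidative stress genes were higher as a group. Of 33 genes in the list, 28 were compared, 16 were called higher and none lower, against 4.38% and 8.27% of all genes compared, and the list's median difference was 1.51. Summed, the list took 8104, 11713 and 15494 CPM on time-lapse plates, against 5211, 5449, 5234 and 5758 CPM on random plates, so that the lowest time-lapse plate lay above the highest random plate. Against the target wells the median was 1.70, and the random wells themselves differed from the target wells by a median of 0.10.

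Hmox1, heme oxygenase, which breaks down heme to biliverdin, iron and carbon monoxide, differed most. It had 79.6, 569.6 and 1019.2 CPM on time-lapse plates, against 10.9, 6.76, 6.25 and 11.5 CPM on random plates, a difference of 5.61. No time-lapse plate came near the random range: the lowest, plate 14, was several times the highest random plate. Summed over all time-lapse HPC wells there were 5063 counts, against 30 counts in random wells, a depth-scaled ratio of 64.7 (exact binomial 95% interval 45.3 to 96.1, counting error only).

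Genes of glutathione synthesis and use were called higher. Gclm and Gclc encode the modifier and catalytic subunits of glutamate-cysteine ligase, the first step of the pathway. Gclm had 281.05, 636.9 and 1125.3 CPM on time-lapse plates, against 27.2, 31.9, 46.2 and 40.4 CPM on random plates, a difference of 4.07. Gclc had 289.8, 656.9 and 966.9 CPM on time-lapse plates, against 56.8, 53.1, 41.9 and 41.2 CPM on random plates, a difference of 3.57. Both subunits were above every random plate on all 16 time-lapse plates. Gsr, which returns oxidised glutathione to its reduced form, had 20.1, 75.97 and 107.9 CPM on time-lapse plates, against 23.7, 20.8, 21.2 and 24.7 CPM on random plates (1.58), and Abcc1, an exporter of glutathione conjugates, 38.6, 155.8 and 272.9 CPM on time-lapse plates, against 40.5, 42.5, 44.99 and 44.5 CPM on random plates (1.71). In each of these the lowest time-lapse plate lay below the random plates and 15 plates lay above them.

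Among enzymes that handle peroxides and quinones, Srxn1, which restores overoxidised peroxiredoxins, had 76.4, 195.1 and 494.5 CPM on time-lapse plates, against 12.8, 6.76, 6.25 and 42.8 CPM on random plates (3.78). The quinone reductase Nqo1 had 1.68, 33.1 and 113.3 CPM on time-lapse plates, against 1.98, 0, 0 and 11.5 CPM on random plates (3.91), with 14 time-lapse plates above every random plate and the other 2 inside the random range. Prdx1, an abundant peroxiredoxin, had 949.9, 1558 and 3130.4 CPM on time-lapse plates, against 394.99, 465.7, 394.3 and 461.2 CPM on random plates (1.95), and catalase (Cat) 142.6 to 771.97 CPM on time-lapse plates, against 120.8, 76.3, 82.5 and 107.1 CPM on random plates (2.28). Txnrd1, thioredoxin reductase, had 233.6, 393.9 and 550.6 CPM on time-lapse plates, against 174.2, 147.8, 132.5 and 131.8 CPM on random plates (1.34). Prdx1, Cat, Txnrd1 and Srxn1 did not overlap between the groups.

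The NADPH-producing enzymes were called higher too. Me1, malic enzyme, had 3.36, 26.2 and 65.98 CPM on time-lapse plates, against 0.988, 3.87, 2.5 and 1.65 CPM on random plates (2.98). G6pdx and Pgd, the oxidative steps of the pentose phosphate pathway, were called as well. G6pdx had 99, 272.9 and 386.7 CPM on time-lapse plates, against 81.02, 104.8, 77.5 and 112.01 CPM on random plates (1.40), and Pgd 322.2, 626.9 and 909.3 CPM on time-lapse plates, against 226.8, 212.6, 188.1 and 270.1 CPM on random plates (1.42). The non-oxidative enzymes of that pathway were not called: Taldo1 had 273.5 to 527.7 CPM on time-lapse plates, against 240.1 to 311.3 CPM on random plates (0.60), and Tkt 301.6 to 502.7 CPM on time-lapse plates, against 392.3 to 462.8 CPM on random plates (-0.20).

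Of the regulators, Nfe2l2, Bach1 and Sqstm1 were called higher and Keap1 was not. Nfe2l2, which encodes Nrf2, had 82.8, 166.1 and 244.1 CPM on time-lapse plates, against 76.1, 41.5, 61.2 and 60.9 CPM on random plates (1.43), and the repressor gene Bach1 93.96, 176.2 and 276.7 CPM on time-lapse plates, against 35.1, 28.99, 26.2 and 62.6 CPM on random plates (2.26). Both were above every random plate on all 16 time-lapse plates. Sqstm1, the p62 cargo receptor that binds Keap1, had 931.3, 1344.4 and 2159 CPM on time-lapse plates, against 245.5, 200.5, 201.2 and 571.6 CPM on random plates (2.30), and random plate 4 stood above the other 3 random plates. Keap1 had 58.7, 114.6 and 171.9 CPM on time-lapse plates, against 54.3, 58.9, 67.5 and 47.8 CPM on random plates, and with a difference of 0.94 missed the 2-fold mark. Osgin1 (2.18) and the glutathione transferase Gstm1 (2.19) passed 2-fold but not the plate rule. Osgin1 had 9.55 to 68.01 CPM on time-lapse plates, against 1.93 to 18.1 CPM on random plates, and Gstm1 2.85 to 80.1 CPM on time-lapse plates, against 0 to 8.24 CPM on random plates. Other members not called were the selenium enzymes Gpx1 (-0.63) and Gpx4 (-0.33), the superoxide dismutases Sod1 (0.73) and Sod2 (-0.61), and thioredoxin, Txn1 (0.26).

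**Figure D2:**
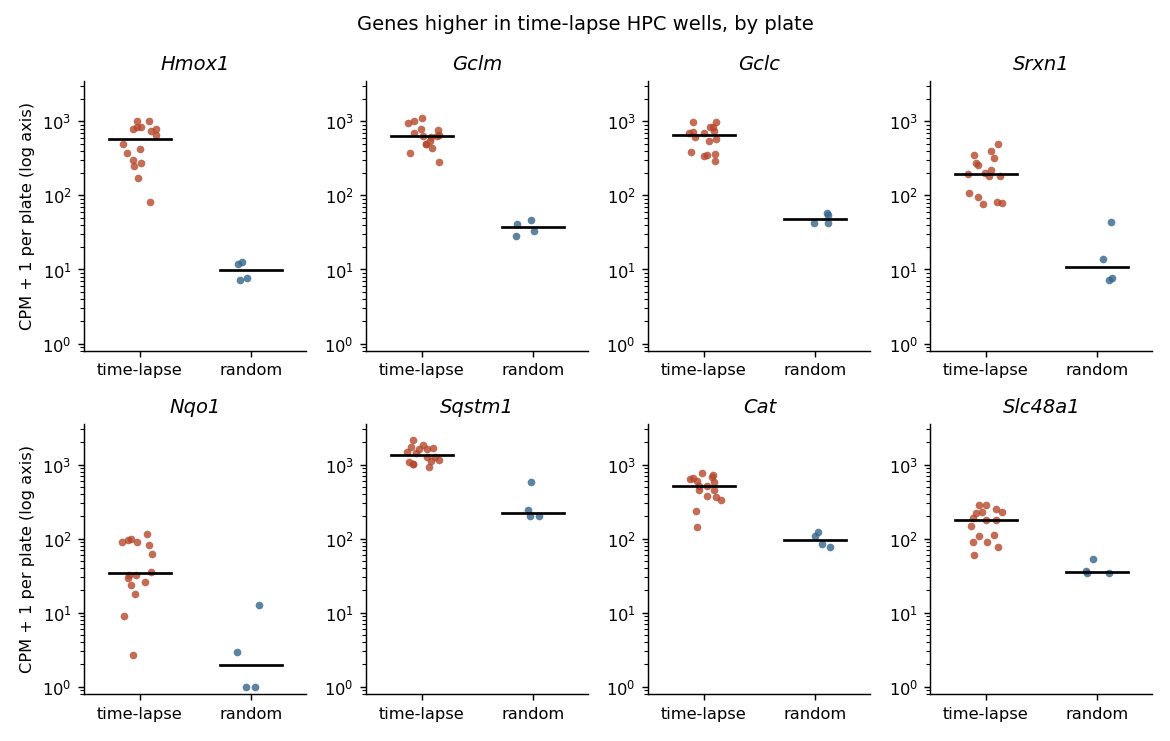
CPM + 1 per plate on a log axis for 8 genes called higher, with 1 point per plate (16 time-lapse, 4 random) and a line at each group's median. For Hmox1 the time-lapse plates run from 79.6 to 1019.2 CPM and the random plates from 6.25 to 11.5 CPM, and only Nqo1 overlaps between the groups.

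The promoters of these genes were searched for the core letters of the antioxidant response element, at which Nrf2 binds with a small Maf partner, or Bach1 in its place. The letters searched were TGACNNNGC on both strands, from 250 bases before to 50 bases after each gene's start, in RefSeq sequences of GRCm38.p6. A promoter was found for 12 of the 16 called genes, and 8 of them held the core (Gclm, Txnrd1, Srxn1, Prdx1, G6pdx, Pgd, Me1 and Nfe2l2), against 12.4% of all 32851 promoters and 17.2% of the 6574 compared genes that matched a promoter. Shown here, as the called genes with the largest differences among those that held the core, are 3 promoters, 5′ to 3′ on the gene's strand, with the matching letters in capitals: Gclm at chr3:122245307-122245606 (+ strand), Srxn1 at chr2:152105274-152105573 (+ strand) and Me1 at chr9:86695865-86696164 (- strand).
Gclm: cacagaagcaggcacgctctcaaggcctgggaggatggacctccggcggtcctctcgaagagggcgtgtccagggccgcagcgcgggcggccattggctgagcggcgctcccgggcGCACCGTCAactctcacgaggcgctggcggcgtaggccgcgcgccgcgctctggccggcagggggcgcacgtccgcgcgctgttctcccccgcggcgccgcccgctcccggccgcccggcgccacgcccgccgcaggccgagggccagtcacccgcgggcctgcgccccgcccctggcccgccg
Srxn1: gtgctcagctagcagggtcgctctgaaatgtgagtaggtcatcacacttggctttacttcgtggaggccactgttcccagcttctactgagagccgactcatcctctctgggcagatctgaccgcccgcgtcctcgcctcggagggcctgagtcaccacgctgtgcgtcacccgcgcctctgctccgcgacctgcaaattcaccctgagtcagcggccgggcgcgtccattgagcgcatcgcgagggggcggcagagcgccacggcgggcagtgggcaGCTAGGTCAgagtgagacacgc
Me1: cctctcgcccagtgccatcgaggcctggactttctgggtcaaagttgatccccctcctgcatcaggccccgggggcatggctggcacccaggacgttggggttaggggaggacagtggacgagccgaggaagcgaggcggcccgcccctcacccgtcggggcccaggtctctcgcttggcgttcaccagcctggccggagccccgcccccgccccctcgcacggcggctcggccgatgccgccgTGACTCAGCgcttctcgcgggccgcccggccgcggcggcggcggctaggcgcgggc

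In Gclm and Me1 the match begins before the gene's start, in Me1 by 6 bases, and in Srxn1 it begins 28 bases after the start, and the Gclm and Srxn1 matches read on the other strand. Over the whole list, called or not, 9 of 24 compared genes with a promoter held the core. The list was drawn up around genes that Nrf2 turns on, so an excess over all promoters may come from that choice. A match of letters is a description and no evidence of binding in these cells.

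Some genes of iron and heme handling were called along with Hmox1. Of 20 compared, 5 were called higher (Hmox1, Fth1, Ftl1, Slc11a1 and Slc48a1) and 1 lower (Tfrc), beside 4.38% and 8.27% of all genes. The list's median was 0.41. The ferritin chains, which store the iron that heme breakdown frees, were abundant in both groups: Fth1 had 3949.8, 6888 and 10124 CPM on time-lapse plates, against 3092, 2848, 2419 and 2879 CPM on random plates (1.23), and Ftl1 5263, 6641 and 8742 CPM on time-lapse plates, against 3402, 3243, 2544 and 3693 CPM on random plates (1.06). Slc48a1, a heme transporter of the lysosome, had 58.7, 176.7 and 286.5 CPM on time-lapse plates, against 36.1, 52.2, 33.7 and 32.9 CPM on random plates (1.98). The transferrin receptor Tfrc, which brings iron in, had 30.2, 73.03 and 193.8 CPM on time-lapse plates, against 177.4, 209.7, 192.5 and 140.01 CPM on random plates (-1.22), so that storage genes were called higher and the uptake gene lower. The iron exporter Slc40a1 was at 0 to 2.32 CPM on time-lapse plates, against 0 CPM on every random plate. Ferritin has many processed pseudogenes, and how the authors shared such molecules between copies is not given in the sources used here.

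Some lysosome and autophagy genes were called as well. Of 31 compared, 6 were called higher and 1 (the protease gene Ctsz) lower, beside 4.38% and 8.27% of all genes. The list's median was 0.25 from random wells and 0.76 from target wells. Summed, the list had 4040.0, 5598 and 6946 CPM on time-lapse plates, against 3512, 3428, 3169.9 and 3690.5 CPM on random plates. The sums did not overlap, but this rests on Sqstm1, which is in the oxidative stress list too. It had 931.3 to 2159 CPM on time-lapse plates, against 200.5 to 571.6 CPM on random plates, and without it the sums overlap. Besides Sqstm1, the called genes were the autophagy kinase Ulk1 (15.1 to 87.5 CPM on time-lapse plates, against 9.66 to 23.1 CPM on random plates), the lysosomal gene regulator Tfe3 (1.54), the cholesterol transporter Npc1 (1.35), Gabarapl1 (1.15) and Fnip2 (1.12). Lipa, the lysosomal acid lipase, was not in the list and had 80.5, 179.5 and 292.7 CPM on time-lapse plates, against 25.7, 18.4, 26.2 and 36.2 CPM on random plates (2.69).

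The other genes with the largest upward differences included surface and myeloid genes. Nrp1, a semaphorin and VEGF co-receptor, had 30.2, 150.97 and 416.5 CPM on time-lapse plates, against 6.92, 17.4, 16.2 and 27.2 CPM on random plates (3.20). The prostacyclin receptor Ptgir had 21.8, 85.2 and 178.5 CPM on time-lapse plates, against 5.93, 5.8, 3.75 and 26.4 CPM on random plates (3.16), and the platelet-activating factor receptor Ptafr 73.2, 173.2 and 277.8 CPM on time-lapse plates, against 49.4, 14.01, 17.5 and 29.7 CPM on random plates (2.66). Mpeg1, a pore-forming protein of phagocytes, had 44.9, 90.1 and 145.2 CPM on time-lapse plates, against 17.8, 19.3, 8.75 and 18.1 CPM on random plates (2.46). Among these, Ptgir alone had a time-lapse plate inside the random range. Cyb5a, cytochrome b5, and Tbcel differed by 2.67 and 2.47 with no overlap.

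The difference was seen in most single wells. Oxidative stress genes took a median of 1.07% of a well's counts in time-lapse HPC wells (0.292 to 5.53%), against 0.523% in random HPC wells (0.331 to 1.25%), and 95.8% of the time-lapse wells lay above the random median. Hmox1 had a median of 385.7 CPM per time-lapse well, with 6.11% of wells at 0 and a highest value of 7546 CPM. It was at 0 in 79.3% of random wells, and 80.5% of time-lapse wells lay above the highest random well, at 88.9 CPM. Thinned to equal depth, 88.3% of time-lapse and 13.3% of random HPC wells held a Hmox1 count, and 1.23% of leukemia wells of the time-lapse plates did. Across the time-lapse wells, Hmox1 ranked with Sqstm1 (Spearman rho 0.61), Srxn1 (0.60), Gclm (0.58) and Slc48a1 (0.54), and not with Nqo1 (0.03), Actb (-0.03) or the well's total counts (-0.10). These wells share plates and libraries, so the values are a description.

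**Figure D3:**
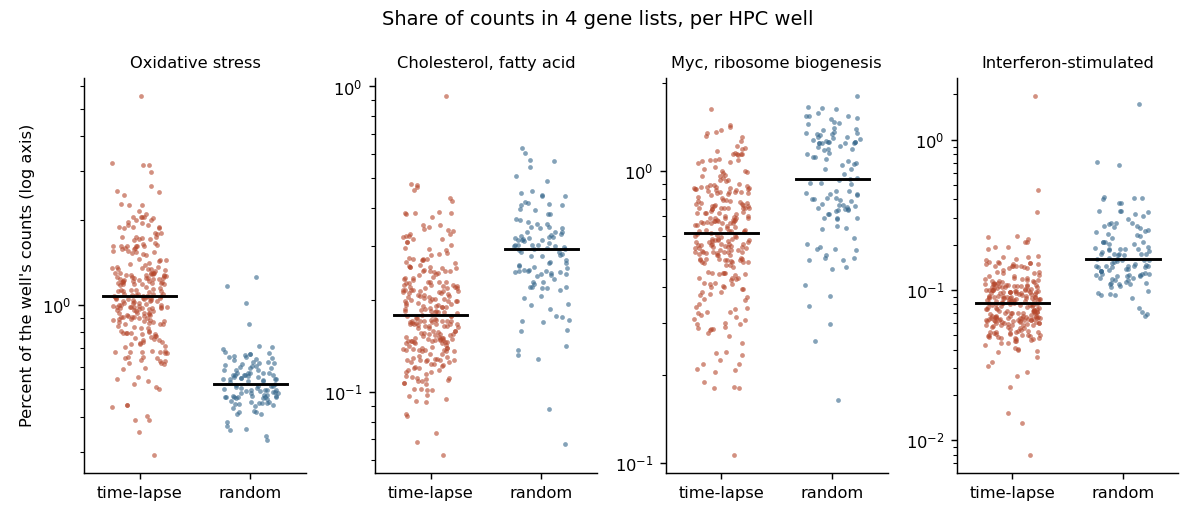
Percent of a well's counts, on a log axis, in 4 gene lists for the time-lapse and random HPC wells, with a line at each group's median. The time-lapse median is higher for oxidative stress genes (1.07%, against 0.523% in random wells) and lower for the other 3 lists, and a single well in each group stands far above the rest in interferon-stimulated genes.

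Immediate early genes were lower in time-lapse HPC wells. Of 21 compared, 6 were called lower (Fos, Fosb, Egr3, Ier2, Klf2 and Dusp1) and none higher, with a median of -0.80 from random wells and -0.42 from target wells. Fosb and Fos encode AP-1 subunits. Fosb had 0, 1.58 and 17.3 CPM on time-lapse plates, against 262.3, 135.3, 79.99 and 80.7 CPM on random plates, a difference of -5.53, and Fos had 2.32, 6.02 and 22.7 CPM on time-lapse plates, against 364.9, 170.1, 98.7 and 92.2 CPM on random plates, a difference of -4.34. The groups did not overlap, and random plate 1 was the highest of the 4 for both genes. The summed list had 669.4, 956.04 and 2347 CPM on time-lapse plates, against 2449.7, 1559.5, 1548 and 1452.9 CPM on random plates, and time-lapse plate 10 stood apart from the other time-lapse plates as the only one inside the random range. Summed over all HPC wells, Fosb had 29 counts in time-lapse wells and 518.5 in random wells, a depth-scaled ratio of 0.0215 (0.0142 to 0.0312). Klf2, a zinc finger factor, had 0, 2.41 and 12.4 CPM on time-lapse plates, against 68.2, 48.3, 39.4 and 21.4 CPM on random plates (-3.96), and Ier2 17.02, 35.3 and 82.2 CPM on time-lapse plates, against 116.6, 106.3, 137.5 and 126.8 CPM on random plates (-1.71).

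Not all early genes took part. Jun had 15.1, 77.2 and 323.8 CPM on time-lapse plates, against 147.2, 126.1, 143.7 and 148.3 CPM on random plates (-0.95), and Atf3 4.32, 52.7 and 288.6 CPM on time-lapse plates, against 147.2, 86, 54.99 and 136.7 CPM on random plates (-1.32), and neither was called. Ier3 had 25.5, 62.3 and 179.5 CPM on time-lapse plates, against 23.7, 34.8, 51.2 and 26.4 CPM on random plates (0.94), with 12 time-lapse plates above every random plate. Target wells held less Fos than random wells, at 15.1 to 88.7 CPM, and the difference of time-lapse from target wells was -2.40 for Fos and -4.35 for Fosb.

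A list of signalling feedback regulators and related genes, with the Dusp, Spry and Rgs families and Etv4 and Etv5, was lower as well: of 11 compared, 6 were called lower and none higher. Their median was -1.44 from random wells and -0.79 from target wells. Their sum was 268.5, 361.6 and 677.9 CPM on time-lapse plates, against 1047.9, 815.3, 853.01 and 741.3 CPM on random plates, with no overlap. The ERK phosphatase Dusp6 had 4.83, 23.9 and 63.7 CPM on time-lapse plates, against 71.1, 92.3, 113.7 and 75.8 CPM on random plates (-1.98). Etv5, an ETS factor, had 3.18, 12.9 and 45.3 CPM on time-lapse plates, against 68.2, 68.8, 67.5 and 67.5 CPM on random plates (-2.43). The random plates agreed closely on Etv5, and all time-lapse plates lay below them. The other called genes were Rgs1 and Rgs2, which act on G protein signalling, and the phosphatase genes Dusp2 and Dusp7, with differences of -2.41, -1.44, -1.21 and -1.89.

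All 3 D-type cyclins, which link growth signals to the start of the cell cycle, were called lower. Ccnd1 had 0, 3.83 and 20.1 CPM on time-lapse plates, against 83, 93.7, 57.5 and 77.4 CPM on random plates (-4.53). Ccnd2 had 57.3, 101.98 and 214.8 CPM on time-lapse plates, against 401.2, 356.6, 462.4 and 406.9 CPM on random plates (-1.99), and Ccnd3 51.9, 80.2 and 117.8 CPM on time-lapse plates, against 246.04, 217.2, 269.3 and 196.4 CPM on random plates (-1.46). None of them overlapped between the groups. Cdkn1b, the p27 inhibitor, had 28.5, 72.3 and 96.7 CPM on time-lapse plates, against 23.7, 23.2, 28.7 and 31.3 CPM on random plates (1.23), and Ccng2, a cyclin linked to arrest, 62.1, 94.8 and 145.8 CPM on time-lapse plates, against 17.8, 21.3, 25 and 46.1 CPM on random plates (1.84). Both were called higher. The kinase genes Cdk4 (-0.47) and Cdk6 (-0.57) and the inhibitor Cdkn1a (0.54) were not called.

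**Figure D4:**
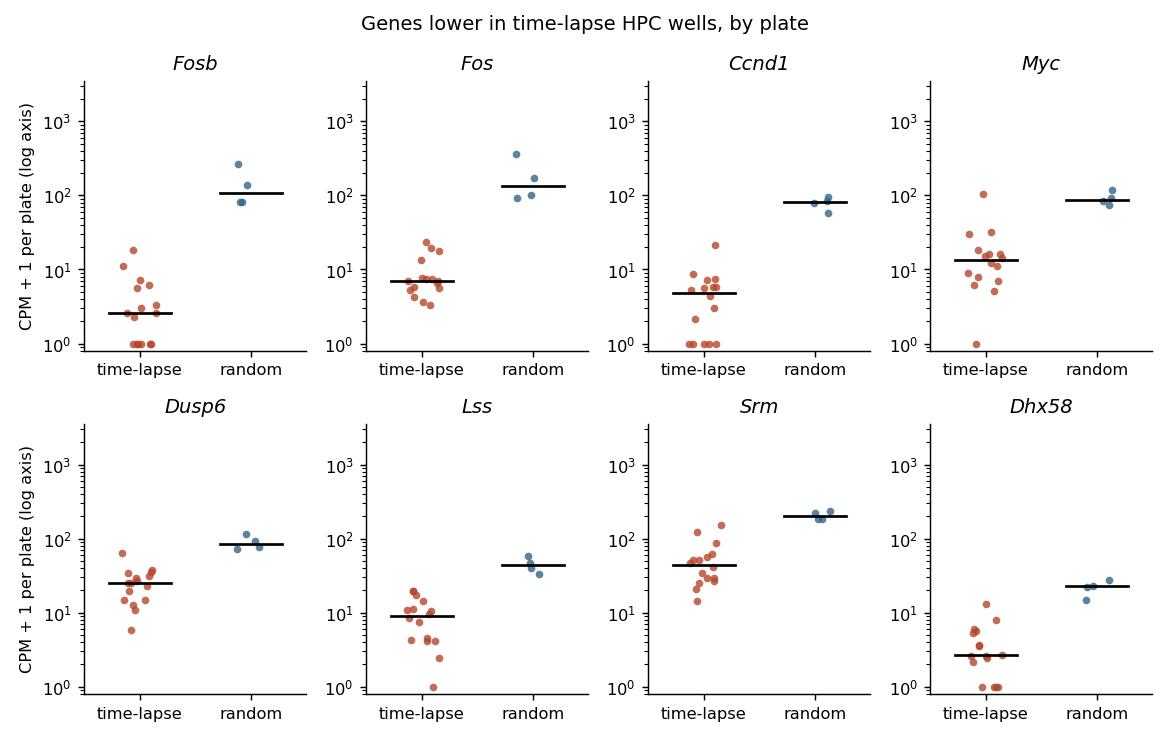
CPM + 1 per plate on a log axis for 8 genes called lower, with 1 point per plate (16 time-lapse, 4 random) and a line at each group's median. Fosb lies between 0 and 17.3 CPM on time-lapse plates and between 79.99 and 262.3 CPM on random plates, and only Myc, through 1 time-lapse plate at 101.9 CPM, overlaps between the groups.

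Myc, a transcription factor that drives ribosome building, had 0, 12.3 and 101.9 CPM on time-lapse plates, against 82.01, 116.9, 73.7 and 91.4 CPM on random plates (-2.90). On time-lapse plate 14 it was inside the random range, and on the other 15 plates below it. Of 33 genes in the list of Myc and ribosome biogenesis, 17 were called lower and none higher, with a median of -1.11. Summed, the list had 5277, 6468 and 10268 CPM on time-lapse plates, against 9903, 11177, 10329 and 10170.1 CPM on random plates, and time-lapse plate 13 alone lay inside the random range. Against target wells the median was -1.34.

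The called members span polyamine synthesis and the nucleolus. Srm, spermidine synthase, had 13.5, 43.1 and 153.98 CPM on time-lapse plates, against 185.02, 235.8, 181.2 and 220.7 CPM on random plates (-2.24), and Odc1, the entry enzyme of polyamine synthesis, 39.2, 73 and 163.3 CPM on time-lapse plates, against 178.8, 228.04, 203.7 and 216.6 CPM on random plates (-1.45). Polr1b, a subunit of RNA polymerase I, had 0.846, 7.12 and 17.3 CPM on time-lapse plates, against 26.7, 40.7, 25.6 and 24.7 CPM on random plates (-2.10). Dkc1 and Nolc1, which work with small nucleolar RNAs, differed by -2.02 and -1.96, and the methionine adenosyltransferase Mat2a by -1.27. In each of these every time-lapse plate lay below every random plate. Of 57 ribosomal protein genes none was called, their median was -0.04, and they took 15.2% of a well's counts at the median in time-lapse wells, against 15.1% in random wells. None of 26 translation factor genes was called (median -0.06).

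Genes of cholesterol and fatty acid synthesis were lower. Of 29 compared, 18 were called lower and 1 higher, with a median of -1.34, and the summed list had 1488.9, 1799.6 and 2647 CPM on time-lapse plates, against 3305, 2861, 3009 and 2762 CPM on random plates. The sums did not overlap. Lss, lanosterol synthase, had 0, 8.03 and 18.6 CPM on time-lapse plates, against 56.3, 45.4, 32.5 and 39.5 CPM on random plates (-2.59). Dhcr7, the last step to cholesterol, had 2.16, 11.7 and 20.1 CPM on time-lapse plates, against 53.9, 53.1, 44.99 and 69.2 CPM on random plates (-2.26). Sqle, squalene epoxidase, had 4.68, 16.01 and 37.2 CPM on time-lapse plates, against 56.3, 60.9, 58.1 and 46.1 CPM on random plates (-1.76). No plate overlapped in any of the 3.

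Further up the pathway, Idi1 (-1.58), Mvk (-1.57), Mvd (-1.55) and Fdps (-1.61) were called lower, as were the fatty acid genes Fasn (-1.15), Acaca (-1.30), Fads2 (-1.61) and Elovl6 (-1.78). Insig1, which holds the sterol sensor in the endoplasmic reticulum, had 6.37, 21.1 and 82.05 CPM on time-lapse plates, against 84.98, 51.2, 68.7 and 80.7 CPM on random plates (-1.63). Hmgcs1, an early synthase of the pathway, had 26.9, 58.8 and 160.7 CPM on time-lapse plates, against 130.4, 112.1, 124.98 and 112.01 CPM on random plates (-0.91), and the regulators Srebf1 and Srebf2 differed by -0.89 and -0.79, with no call.

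Genes of lipid export and storage were called in both directions. Of 8 compared, 3 were called higher and 1 lower, beside 4.38% and 8.27% of all genes. Their median was 0.31 from random wells and 0.96 from target wells. Abca1, the cholesterol exporter, had 1.68, 18.7 and 63.7 CPM on time-lapse plates, against 3.95, 5.8, 2.5 and 6.59 CPM on random plates (1.59). Mylip, a ubiquitin ligase, had 22.3, 34.3 and 63.99 CPM on time-lapse plates, against 14.8, 3.87, 9.999 and 6.59 CPM on random plates (1.98), and Cpt1a, which admits fatty acids to mitochondria, 20.97, 49.1 and 85.2 CPM on time-lapse plates, against 13.8, 26.1, 19.997 and 11.5 CPM on random plates (1.41). Angptl4 was the lower gene, with 0, 3.54 and 8.05 CPM on time-lapse plates, against 15.8, 31.9, 19.997 and 19.8 CPM on random plates (-2.34).

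The sterol response element letters TCACNCCAC were in none of the 14 promoters matched to the 18 called lower genes, against 1.24% of all promoters. The E-box CACGTG, the site of Myc with Max, was in 2 of 13 promoters of the called Myc and ribosome genes (Nop2 and Wdr43), against 7.15% of all promoters and 12.99% of those of compared genes. No match says only that these letters are not in this window.

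Interferon-stimulated genes were lower in time-lapse than in random HPC wells. Of 32 compared, 17 were called lower and none higher, with a median of -1.28. Xaf1, which binds the apoptosis inhibitor XIAP, had 4.0, 13.2 and 53.9 CPM on time-lapse plates, against 83.99, 73.3, 157.3 and 177.6 CPM on random plates (-2.88). Of the RNA sensor genes, Dhx58 had 0, 1.65 and 12.1 CPM on time-lapse plates, against 13.8, 22.2, 21.2 and 26.4 CPM on random plates (-2.89), and Ddx58 1.28, 5.95 and 39.2 CPM on time-lapse plates, against 11.9, 18.4, 13.7 and 29.7 CPM on random plates (-1.30). Irf7, which amplifies interferon production, had 0, 3.6 and 21.1 CPM on time-lapse plates, against 20.8, 18.4, 39.99 and 34.6 CPM on random plates (-2.52). Xaf1 and Dhx58 did not overlap between the groups. Summed, the list had 656.4, 878.1 and 2779.5 CPM on time-lapse plates, against 1728, 1717, 2039 and 2696 CPM on random plates, and 15 time-lapse plates lay below every random plate, while plate 5 lay above them.

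Here the random wells also stood apart from the target wells. The list's median was -0.04 for time-lapse minus target wells and 1.29 for random minus target wells. Isg15, Irf7, Usp18, Trim30a and Ddx58 differed from target wells by 0.54, 0.34, 0.36, 0.43 and 0.23, the opposite sign to their differences from random wells. Xaf1 differed from target wells by -1.91. The immunoproteasome genes, which interferon raises, were lower too. Psmb8 had 164.4, 237.1 and 366.6 CPM on time-lapse plates, against 470.3, 521.3, 586.8 and 479.3 CPM on random plates (-1.17) and 459.3 to 557.4 CPM on target plates (-1.09). Psmb9, Psmb10 and Psme2 were the other 3 called of 34 proteasome genes, with differences of -1.46, -1.14 and -1.06 from random wells.

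In each group 1 well carried a strong interferon program. On time-lapse plate 5, well 53 gave 1.94% of its counts to the list, 57.6% of all interferon counts of that plate's HPC wells, and on random plate 4, well 28 gave 1.72%, 35.9% of its plate's. The well on the time-lapse plate had 10692 CPM of Rsad2, the antiviral enzyme viperin, 3951 CPM of the chemokine Ccl5, 1207.3 CPM of Cxcl10 and 951.2 CPM of Ifit1. The well on the random plate had 8887, 3836, 1552 and 1844.8 CPM of these genes. Each well held 94.2 to 100% of its plate's HPC counts of these 4 genes. Without these 2 wells, a choice made after seeing the data, all 16 time-lapse plates lay below every random plate in the summed list, at up to 1284.98 CPM, against 1717 to 2039 CPM. Of 30 genes then compared, 16 were called lower and none higher, with a median of -1.18.

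Of the 17 called interferon genes, 9 matched a promoter, and 5 of these held a match to the interferon-stimulated response element (GAAA and GAAA with any 2 bases between) on either strand (Isg15, Bst2, Ddx58, Trim30a and Slfn5), against 3.44% of all promoters and 3.77% of those of compared genes. Over the whole list, called or not, 13 of 23 compared genes with a promoter held it. The genes were listed as interferon-stimulated, so these matches say nothing about which of them were called. Of the 5 called genes with a match, Isg15 and Trim30a, which had the largest differences, are shown with the matching letters in capitals, from RefSeq, GRCm38.p6: Isg15 at chr4:156200769-156201068 and Trim30a at chr7:104465144-104465443, both genes on the - strand. For Me1 and Trim30a RefSeq lists 2 promoters, and 1 that held the letters is shown.
Isg15: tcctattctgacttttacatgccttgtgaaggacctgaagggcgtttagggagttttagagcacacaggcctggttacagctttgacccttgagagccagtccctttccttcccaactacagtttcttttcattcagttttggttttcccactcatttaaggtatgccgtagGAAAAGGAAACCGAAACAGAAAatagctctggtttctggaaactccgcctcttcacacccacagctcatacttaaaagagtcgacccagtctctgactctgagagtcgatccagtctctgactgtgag
Trim30a: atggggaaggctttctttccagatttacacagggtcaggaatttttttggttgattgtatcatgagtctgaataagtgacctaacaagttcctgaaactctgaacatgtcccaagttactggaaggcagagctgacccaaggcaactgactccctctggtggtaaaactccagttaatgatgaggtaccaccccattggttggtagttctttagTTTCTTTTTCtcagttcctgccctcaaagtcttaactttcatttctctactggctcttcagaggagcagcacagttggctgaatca

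In Isg15, 3 overlapping matches begin 78 bases before the start. Isg15 had 0, 0 and 57.3 CPM on time-lapse plates, against 5.93, 14.5, 12.5 and 59.3 CPM on random plates (-3.08), and its highest plate in each group is that of the well described above. Trim30a, a member of the TRIM family, had 0, 1.16 and 18.1 CPM on time-lapse plates, against 15.3, 18.4, 9.37 and 23.1 CPM on random plates (-2.73).

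Cytokine signalling and chemokine genes were called in both directions. Cish, a STAT5 target that damps cytokine receptors, had 0, 7.35 and 17.3 CPM on time-lapse plates, against 40.02, 44.4, 64.99 and 24.7 CPM on random plates (-2.78). The survival kinase genes Pim1 and Pim2 differed by -1.43 and -1.68, and Bcl6, a transcriptional repressor, was called higher at 6.37, 51.8 and 69.4 CPM on time-lapse plates, against 11.4, 2.9, 2.5 and 11.5 CPM on random plates (2.64). In all, 5 of 13 genes of this list were called lower and 1 higher, and Socs2 was not called (-0.50). The list's median was -0.76 from random wells and -0.34 from target wells. Beside 8.27% lower and 4.38% higher over all genes, 3 of 15 chemokine and cytokine genes compared were called lower (Ccl4, Osm and Ccr2) and 2 higher (Cxcr4 and Tnfsf9). Their median was -0.88 from random wells and 0.15, in the other direction, from target wells. The chemokine Ccl4 had 1.28, 7.71 and 70.2 CPM on time-lapse plates, against 154.6, 111.1, 186.8 and 151.5 CPM on random plates (-3.81), while the related Ccl3 had 150.1, 598.7 and 1074.7 CPM on time-lapse plates, against 1220.3, 683.6, 730.1 and 679.5 CPM on random plates (-0.56) and was not called. The chemokine receptor Cxcr4 had 34.8, 83.7 and 124.9 CPM on time-lapse plates, against 23.7, 28.99, 41.2 and 21.4 CPM on random plates (1.37).

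Progenitor and myeloid identity genes were called in both directions. Of 26 progenitor genes compared, 2 were called higher and 5 lower, beside 4.38% higher and 8.27% lower over all genes. Their median was -0.30 from random wells and -0.09 from target wells. Lmo2 and Lyl1 are partners in a transcription complex of stem and progenitor cells. Lmo2 had 32.7, 49 and 78.9 CPM on time-lapse plates, against 151.2, 100.5, 113.7 and 120.2 CPM on random plates (-1.27), and Lyl1 37.2, 58.1 and 146.5 CPM on time-lapse plates, against 180.8, 173.9, 142.5 and 194.4 CPM on random plates (-1.41). Sox4 had 220.1, 521.2 and 918.3 CPM on time-lapse plates, against 241.1, 239.6, 279.3 and 207.6 CPM on random plates (1.05), and Il7r, the interleukin 7 receptor, 21.4, 41.3 and 110.2 CPM on time-lapse plates, against 1.98, 10.6, 6.25 and 14.8 CPM on random plates (2.45). Runx1 (-0.57), Meis1 (0.85), Myb (-0.11), Hoxa9 and Flt3 were not called.

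Beside 4.38% higher and 8.27% lower over all genes, 2 of 20 monocyte and macrophage genes were called higher and 5 lower. Their median was -0.48 from random wells and 0.19 from target wells, so the direction depended on the comparison wells. Irf8, the factor of monocyte and dendritic cells, had 7.7, 26.2 and 120.2 CPM on time-lapse plates, against 124.01, 97.6, 139.98 and 128.5 CPM on random plates (-1.88), and the chemokine receptor Ccr2 24.1, 88.5 and 394.5 CPM on time-lapse plates, against 336.9, 453.2, 476.2 and 426.6 CPM on random plates (-2.19). In both, 1 time-lapse plate lay inside the random range and 15 lay below it. The lectin receptor Clec4d had 79.9, 150.97 and 389.1 CPM on time-lapse plates, against 52.4, 70.5, 29.996 and 47.8 CPM on random plates (1.72), and Ncf4, a subunit of the phagocyte oxidase, was called lower (-1.08). Tmem119, known as a microglial surface protein, had 1.61, 11.8 and 31.9 CPM on time-lapse plates, against 218.4, 195.2, 143.7 and 144.96 CPM on random plates (-3.98), with no overlap.

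**Figure D5:**
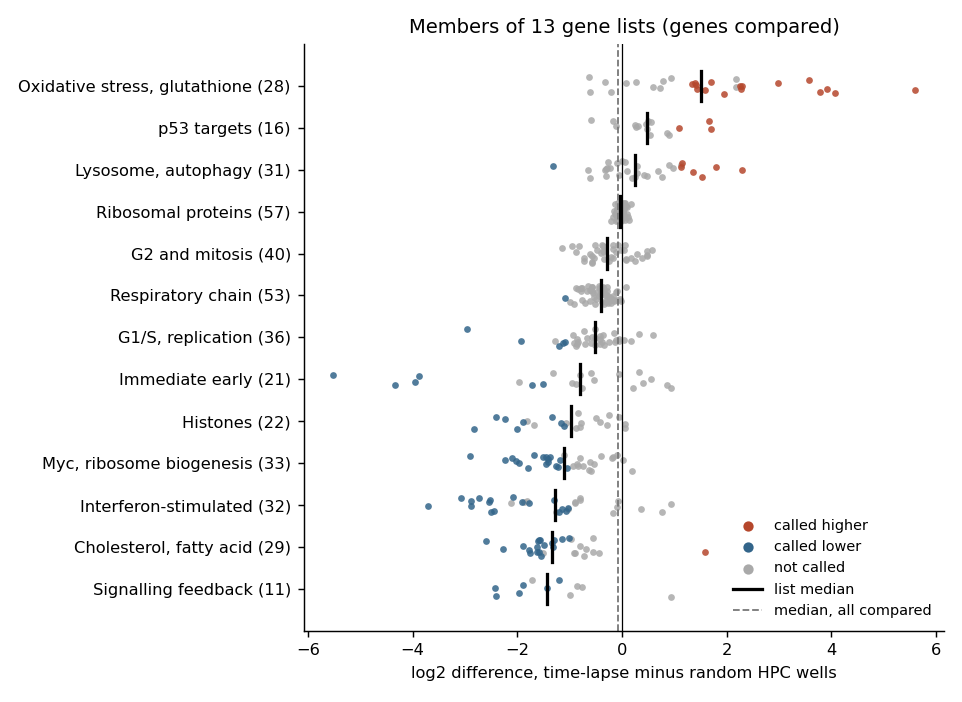
Each point is a compared gene of 1 of 13 lists (number of genes in brackets), placed by its log2 difference, time-lapse minus random HPC wells. Black bars are list medians and the dashed line is the median of all genes compared, -0.08. The oxidative stress median is 1.51, the ribosomal protein genes lie close to 0, and the medians of the bottom 4 lists lie between -1.11 and -1.44.

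Beyond the D-type cyclins, the share of cell cycle genes called differed between lists, beside 4.38% higher and 8.27% lower over all genes. None of 40 G2 and mitosis genes was called, with a median of -0.28 from random wells and 0.07 from target wells, and Mki67 had 129.9, 260.7 and 402.99 CPM on time-lapse plates, against 275.7, 268.6, 224.3 and 207.6 CPM on random plates (0.08). Of 36 genes of G1/S and replication, 5 were called lower, among them the repair glycosylase Ung (0, 4.91 and 30.8 CPM on time-lapse plates, against 50.4, 36.7, 47.5 and 31.3 CPM on random plates, -2.97) and cyclin E1, Ccne1 (-1.94). In all, 32 of the 36 had a negative and 4 a positive difference, with a median of -0.52 from random wells and -0.64 from target wells. Their sum lay below every random plate on 11 time-lapse plates. Per well, G1/S genes took a median of 0.222% of counts in time-lapse wells, against 0.397% in random wells, and G2 and mitosis genes 0.179% in time-lapse wells, against 0.277% in random wells. Of 22 histone genes, 8 were called lower, 4 of them H1 linker histones (Hist1h1a, Hist1h1c, Hist1h1d and Hist1h1e). The summed histone list lay below every random plate on all 16 time-lapse plates. Histone genes have near-identical copies, so the split between them is uncertain.

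Among p53 targets, 3 of 16 were called higher and none lower, beside 4.38% and 8.27% of all genes. The list's median was 0.48 from random wells and 0.84 from target wells. Trp53inp1 had 67.1, 195.9 and 319.8 CPM on time-lapse plates, against 68.2, 37.2, 51.2 and 79.1 CPM on random plates (1.71), and Gadd45a 5.34, 19.6 and 57.3 CPM on time-lapse plates, against 10.9, 3.87, 5.0 and 8.24 CPM on random plates (1.66). The list took a median of 0.214% of a well's counts in time-lapse wells, against 0.106% in random wells. Mdm2 (0.91), Ccng1 (0.86) and Cdkn1a were not called, and random plates 1 and 4 held more Cdkn1a than the other random plates. Of 20 apoptosis genes, 4 were called higher and 2 lower, beside the same shares of all genes. Among the higher ones were the death genes Bcl2l11 (105.2, 166.7 and 334.7 CPM on time-lapse plates, against 68.2, 39.6, 56.2 and 47.8 CPM on random plates, 1.73) and Bmf (1.69). The others were Apaf1 (1.13) and the apoptosis inhibitor Xiap (1.02). The death genes Pmaip1 (0.45), Bax (0.24) and Bbc3 (-0.17) were not called. The survival gene Bcl2 was called lower, at 36.03, 54.01 and 114.5 CPM on time-lapse plates, against 199.6, 185.5, 237.5 and 184.8 CPM on random plates (-1.75), and so was Bid (-1.18).

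The amino acid stress genes that Atf4 controls were not higher as a group. Of 29 compared, 7 were called lower and 1 higher, beside 8.27% and 4.38% of all genes. Their median was -0.53 from random wells and 0.05 from target wells, and the random wells differed from target wells by a median of 0.58. The transporter Slc38a2 was the higher gene, at 244.4, 500.7 and 993.5 CPM on time-lapse plates, against 182.3, 166.2, 176.2 and 204.7 CPM on random plates (1.46), and the tRNA synthetase genes Wars (-1.40) and Yars (-1.24) were among the lower ones. Random plate 4 held the most Asns of the random plates (140.02 CPM). Of 28 glycolysis and hypoxia genes, 3 were called lower, among them lactate dehydrogenase, Ldha, with 259.1, 425.7 and 1118.3 CPM on time-lapse plates, against 855.7, 1206.9, 1119.03 and 1032.8 CPM on random plates (-1.14), and 1 higher, the histone demethylase Kdm3a (1.22). These shares are near those of all genes, and the list's median was -0.53 from random wells and -0.07 from target wells. The respiratory chain genes had a median of -0.40 with 1 of 53 called, cytochrome c (Cycs, -1.08), and took a median of 1.45% of a well's counts in time-lapse wells, against 1.95% in random wells. None of 13 NF-kB genes was called (median 0.43 from random and 1.05 from target wells), and 1 of 20 chaperone genes was, Fkbp4, which was lower.

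Of 15 nuclear and structural noncoding RNAs compared, 3 were called lower and 2 higher, beside 8.27% and 4.38% of all genes. Rpph1, the RNA of ribonuclease P, had 23.2, 125.5 and 349.7 CPM on time-lapse plates, against 501.6, 710.9, 569.9 and 667.96 CPM on random plates (-2.53). Rnu11, a minor spliceosome RNA, had 0, 9.19 and 29.5 CPM on time-lapse plates, against 42.5, 91.8, 85.8 and 112.01 CPM on random plates (-3.04), and Rn4.5s, a repeated-copy RNA whose count depends on how copies were treated, 2543, 6106 and 17974 CPM on time-lapse plates, against 16984, 25153, 50739.8 and 33115 CPM on random plates (-2.17). Malat1 had 1729.9, 2602 and 3950.4 CPM on time-lapse plates, against 1401.1, 1076.4, 1065.5 and 1548 CPM on random plates (1.05), and Neat1 287.7, 627.5 and 1129.2 CPM on time-lapse plates, against 296.8, 215.5, 271.2 and 331.1 CPM on random plates (1.23). The part that the capture of these RNAs, which differed between the groups in Rn45s too, may have in other differences was not tested.

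The same rule applied to the other 2 lines gave 13 to 37 leukemia wells on a time-lapse plate and 22 to 28 on a random plate. Time-lapse against random, 0.882% of 7707 genes were called higher and 1.01% lower in leukemia wells, and 9.53% and 10.2% of 8186 genes in T wells. Oxidative stress genes had a median difference of -0.07 in leukemia wells and 0.40 in T wells, set beside 1.51 in HPC wells. Of those compared, 3 of 23 were called higher and none lower in leukemia wells, and 8 of 28 higher and 1 lower in T wells. Gclc differed by 1.51 in leukemia wells and 1.67 in T wells, and Sqstm1 by 1.21 and 1.10 in the same order, while Gclm differed by 0.65 in leukemia wells and 0.08 in T wells. Hmox1 was at 0 to 2.45 CPM on time-lapse plates, against 0 to 3.72 CPM on random plates, in leukemia wells, and at 11.4 to 369.99 CPM on time-lapse plates, against 16.7 to 40.3 CPM on random plates, in T wells. The median of cholesterol and fatty acid genes was -0.13 in leukemia wells and -0.68 in T wells. That of Myc and ribosome genes was -0.01 and -0.04, and that of interferon genes -0.19 and 0.66. In T wells the 1 compared HPC gene of the rule was called higher (4.34). Of 8 monocyte and macrophage genes compared there, 4 were called higher and 1 lower. Srxn1 was at 0 to 0.589 CPM in T wells on time-lapse plates, against 76.4 to 494.5 CPM in HPC wells. The HPC genes made up 10 to 30% of the rule's summed counts in 20 listed time-lapse wells and 0 random wells. The part of HPC RNA in the T well differences was not tested. Whether the lines differ in their differences was not tested.

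Set against target HPC wells, 8.02% of 8188 genes were called higher and 6.75% lower in time-lapse wells. The 2 comparisons share the time-lapse plates. Hmox1 had 8.45 to 58.7 CPM on target plates (difference 4.26), Gclm 30.3 to 40.02 CPM (4.11), Ccnd1 78.8 to 108.4 CPM (-4.78) and Srm 174.1 to 274.3 CPM (-2.35). Of the genes called higher against random wells, 71.3% were also called higher against target wells, which is 39.7% of those called higher there. Of the genes called lower, 54.1% were also called lower against target wells, 67.6% of those called lower there, and 1 gene was called in opposite directions.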

How the data were processed

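The deposited table of the authors holds expected counts per gene and well of a mixture of mouse cell lines. Per the labels' protocols, spike-in RNA was added to each well, and RNA was fragmented by heat, copied with an oligo(dT) primer carrying a molecular barcode, template-switched and amplified by PCR. Per the submitters' processing notes, bcl2fastq and STAR were used with mm10. Versions, counting tool, annotation and handling of barcodes are not given in the labels. In HPC wells 5.12% of positive values were not whole (tolerance 0.001). Columns of other wells (425) were not used.

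The rule kept 373 HPC wells: 262 of 1008 listed (1536 labelled) time-lapse wells and 111 of 330 listed (384 labelled) random wells. The members and gene lists were chosen with earlier results of these data known. Counts were summed over the HPC wells of each plate (5 or more wells), scaled to CPM over all genes, and compared as plate means of log2 (CPM + 1). Of 8355 genes with a mean of at least 10 CPM in 1 group, 366 were called higher and 691 lower. No count model was fitted, since each group is 1 sample. The named genes are the 12 largest called differences in each direction (from 50 CPM and 30 counts up) and, from each described list, its defining members and its called members with the largest differences, except some that are not reported here. Intervals are exact binomial at 95% and cover counting error only.

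Promoters of 250 bases before to 50 after each start (32851, RefSeq, GRCm38.p6) were matched by symbol. Scaling, pseudocount, CPM minimum, thinning, the share that defines HPC wells, single plates and the comparison wells were varied. The setting without 2 interferon-high wells was chosen after seeing the data. Scripts ran on python 3.11.15 with scipy 1.17.1, pandas 2.3.3, matplotlib 3.10.9 and numpy 2.4.6, and were tested on simulated data.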

Additional observations from a re-analysis of the deposited data

Results flagged for a closer look

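Among 41 summed gene lists, 4 (9.76%) had 1 of the 4 random plates far from the other 3 by Dixon's criterion, where chance gives about 1 in 20. Random plate 1 was high in immediate early genes, at 2449.7 CPM with the other random plates between 1452.9 and 1559.5 CPM, and this is the plate with the most Fos and Fosb. It was high in erythroid and megakaryocyte genes, at 205.4 CPM with the others between 105.4 and 121.9 CPM, and low in glycolysis and hypoxia genes, at 7262 CPM with the others between 9210.3 and 9571 CPM. Random plate 2 was high in actin cytoskeleton genes, at 18785 CPM with the others between 16373 and 16760.2 CPM. Without random plate 1, 4.99% of genes were called higher and 9.01% lower. Leaving out any 1 random plate raised both shares, most without plate 4 (5.33% and 9.42%), so the rise is not particular to plate 1. A call needs time-lapse plates past every random plate, so fewer random plates loosen the rule and favour a rise.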

How the results depend on the processing

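The differences of the named genes were recomputed under 34 settings. Of 6528 values, 6442 kept their sign and moved by less than the spread between plates, 81 moved further and 5 changed sign. The settings of the CPM minimum and of at least 8 HPC wells on a plate could not change a difference. Their values are among the 6442 by design. With target wells in place of random wells 64 moved further and the 5 changed sign, together 35.9% of the named genes. A pseudocount of 5 CPM moved 14 and thinning 3, and no other setting that could change a difference moved any. The 5 were interferon genes: Isg15 0.54, Trim30a 0.43, Usp18 0.36, Irf7 0.34 and Ddx58 0.23. Over all genes, a minimum of 50 CPM left 3666 genes, of which 5.35% were called higher and 7.77% lower, and target wells in place of random wells gave 8.02% called higher. The median of genes per time-lapse well minus that per random well was positive as counted and -85.5 when thinned to 20000 counts. Leaving out 1 plate at a time gave 4.297 to 5.33% called higher, 8.16 to 9.42% called lower, and a random HPC share of 30.98 to 37.04%. Calls higher and lower were 4.87 and 7.598% with size factors, 5.24 and 7.23% with Rn45s left out of the total, 3.22 and 5.96% with a pseudocount of 5 CPM, and 3.67 and 7.48% after thinning. Counts summed over all plates of a group gave no calls, since plates were not compared. No paired analysis was possible because each group is 1 sample and the plate numbers only name plates. Genes under 10 CPM were not compared, and the random range rests on 4 plates.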

Other observations

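Cytoskeletal genes were mostly uncalled in HPC wells. Of 36 compared, Vim, vimentin, was called higher, at 639.6, 790.8 and 1294.02 CPM on time-lapse plates, against 394.7, 525.6, 306.8 and 456.6 CPM on random plates (1.08). Pfn1, profilin, and Srf, a regulator of actin genes, were called lower. Pfn1 had 10.03, 52.03 and 83.7 CPM on time-lapse plates, against 147.2, 230.9, 158.7 and 181.2 CPM on random plates (-2.09), and Srf 9.26, 16.8 and 37.8 CPM on time-lapse plates, against 40.5, 37.7, 38.7 and 36.2 CPM on random plates (-1.04). Every time-lapse plate was past every random plate for Vim and Pfn1. Of 26 splicing factor genes, Clk1 (1.51) and Luc7l3 (1.07) were called higher and none lower. The counts of both lists are to be read beside 4.38% called higher and 8.27% lower over all genes.

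Of the remaining genes with the largest downward differences, Ccdc36 had 7.86, 24.2 and 286.7 CPM on time-lapse plates, against 136.4, 412.4, 625.6 and 149.8 CPM on random plates (-3.30), and Dqx1 2.01, 9.62 and 88.1 CPM on time-lapse plates, against 85.96, 126.6, 147.5 and 34.6 CPM on random plates (-2.95). For both genes the random plates themselves spread widely, with plate 3 the highest, and time-lapse plates reached into their range. Lgals3bp, a secreted glycoprotein, had 0, 16.2 and 57.3 CPM on time-lapse plates, against 86.95, 77.3, 108.7 and 105.4 CPM on random plates (-2.75), with no overlap. Tnfsf9, a co-stimulatory ligand, was called higher, at 8.46, 22.2 and 36.1 CPM on time-lapse plates, against 4.94, 3.87, 7.5 and 6.59 CPM on random plates (1.73), and the cytokine oncostatin M, Osm, lower (-2.14).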
